A study of Mus musculus with 36 samples.

Results

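The genes described here encode the protein subunits of the mitochondrial respiratory chain and the ATP synthase, measured in mouse liver. They were taken from the deposited array values by symbol: every gene whose single annotated symbol begins with Nduf followed by a, b, c, s or v and a digit, is Sdha, Sdhb, Sdhc or Sdhd, or begins with Uqcr, Atp5, or Cox followed by 4i, 5, 6, 7 or 8. Where a gene had several probe sets, the 1 with the highest mean stood for it. This found 80 of the 22180 genes with 1 symbol. Of these, 78 are subunit genes, and 2 are pseudogenes by their names (Atp5c1-ps and Uqcrh-ps1), which are left out of every count below. By name, 33 of the 78 belong to complex I, 4 to complex II, 7 to complex III, 17 to complex IV and 17 to the ATP synthase. The rule uses symbols and, for the choice of probe set, mean levels, but no difference between groups. Probe sets that name several genes were not used, so Cox6c, Ndufb2, Ndufb4, Ndufs6 and Uqcr10 are not analysed here. A list of the 13 subunits encoded by mitochondrial DNA had 0 measured members.

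The series asked how a lung adenocarcinoma is related to the daily cycle of the liver. Livers came from C57BL/6 mice of 2 genotypes, WT and TB, the latter being the mice of the tumour model. The labels give neither an age nor how the tumours were induced. All mice were kept in 12 h of light and 12 h of dark, and livers were taken at Zeitgeber time (ZT, hours from lights on) 0, 4, 8, 12, 16 and 20. Genotype and time together give 12 groups of 3 arrays, 36 in all, hybridised with RNA of whole liver. The labels call the arrays replicates and do not say whether each came from its own mouse. The p-values therefore rest on the variation among these samples, part of which may be technical.

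Oxidative phosphorylation turns the energy of nutrients into ATP at the inner mitochondrial membrane. Complex I takes electrons from NADH and complex II from succinate, both hand them to ubiquinone, complex III passes them on to cytochrome c, and complex IV delivers them to oxygen. Complexes I, III and IV pump protons, and the ATP synthase makes ATP as the protons flow back. Liver relies on this for gluconeogenesis, urea synthesis and the oxidation of fatty acids. Most subunits are encoded in the nucleus, and several subunits of complex IV exist as a general isoform and one restricted to muscle, lung or testis.

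The promoters of 4 subunit genes are printed because these are the genes that passed a test in the sections that follow. Each is the window from 250 bases before to 50 bases after the start of the gene, read 5′ to 3′ on the gene's own strand from RefSeq's annotation of GRCm38.p6. Capitals mark matches on either strand to the letters of motifs known from nuclear genes of the respiratory chain. The windows are chr5:108434350-108434649 for Atp5k, chr13:30545267-30545566 for Uqcrfs1, chr9:50603800-50604099 for Sdhd and chr2:174464052-174464351 for Atp5e, all on the minus strand.
Atp5k: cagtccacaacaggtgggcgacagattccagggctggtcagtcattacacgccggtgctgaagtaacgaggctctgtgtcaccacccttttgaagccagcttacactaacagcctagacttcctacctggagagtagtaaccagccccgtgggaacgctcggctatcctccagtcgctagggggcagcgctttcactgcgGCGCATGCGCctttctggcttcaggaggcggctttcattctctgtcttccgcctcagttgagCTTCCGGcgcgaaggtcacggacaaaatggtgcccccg
Uqcrfs1: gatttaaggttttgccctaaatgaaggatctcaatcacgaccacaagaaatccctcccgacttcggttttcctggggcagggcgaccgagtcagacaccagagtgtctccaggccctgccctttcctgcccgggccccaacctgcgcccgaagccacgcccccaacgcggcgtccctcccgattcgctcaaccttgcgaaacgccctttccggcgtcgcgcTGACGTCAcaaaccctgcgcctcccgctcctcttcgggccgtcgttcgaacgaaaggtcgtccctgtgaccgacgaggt
Sdhd: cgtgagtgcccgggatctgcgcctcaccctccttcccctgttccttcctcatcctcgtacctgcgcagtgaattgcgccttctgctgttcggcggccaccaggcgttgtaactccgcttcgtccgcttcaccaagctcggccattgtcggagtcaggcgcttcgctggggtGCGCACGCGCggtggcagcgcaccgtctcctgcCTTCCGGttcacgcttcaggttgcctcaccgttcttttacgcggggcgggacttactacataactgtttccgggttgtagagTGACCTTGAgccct
Atp5e: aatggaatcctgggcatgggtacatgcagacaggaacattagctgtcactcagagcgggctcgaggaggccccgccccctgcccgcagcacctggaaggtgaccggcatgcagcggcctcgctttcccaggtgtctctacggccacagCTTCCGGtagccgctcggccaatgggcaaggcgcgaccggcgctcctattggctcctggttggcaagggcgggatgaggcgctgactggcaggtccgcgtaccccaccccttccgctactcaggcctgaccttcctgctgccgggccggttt
In Atp5k the motif of NRF1, a transcription factor of nuclear genes for mitochondrial proteins, lies at bases 201 to 210 of the window. The motif of ETS factors such as GABPA lies at bases 263 to 269. Sdhd holds the NRF1 motif at bases 172 to 181, the ETS motif at 205 to 211 and the motif of ERRA, an orphan nuclear receptor of energy metabolism, at 287 to 295. Atp5e holds the ETS motif at bases 149 to 155. Uqcrfs1 holds the cAMP response element at bases 222 to 229. A promoter window was found for 64 of the 78 genes. The NRF1 letters (GCGCA, any base, then GCGC), searched on both strands like the others, were in 15 of the 64 (23.4%) against 5.19% of all 27025 genes with such a window. The ETS letters CCGGAAG were in 17 (26.6%) against 9.93%, and the YY1 letters AAGATGGC in 9 (14.1%) against 3.19%. The ERRA letters TCAAGGTCA were in 2 (3.12%) against 0.466%, and the cAMP response element TGACGTCA in 3 (4.69%) against 2.03%. The E-box CACGTG, which the clock proteins CLOCK and BMAL1 bind, was in 6 (9.38%) against 8.09%. A match of letters is a description and not evidence of binding.

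All values below are probe set intensities on the scale log2(intensity + 16), and a difference on it understates the change of dim genes. Array medians ran from 36.25 to 43.25 intensity units, and the typical spread inside a group (median SD) was 0.18 log2 both for the 78 genes and for all genes. The liver markers Alb, Apoa1 and Ttr were high on every array, with Alb between 13.5 and 13.7. The arrays of every group also fell into a smaller set of 12 (1 array per group) and a larger set of 24, found from the data on probe sets without a symbol and not named in the labels. At each time the smaller set held the array of the same replicate number in WT and in TB.

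One array, WT ZT 12 replicate 3, carried RNA of skeletal muscle. All 22 muscle markers were higher there than on the other 35 arrays, by a median of 6.04 log2, and Ckm, the creatine kinase of muscle, stood at 16.7 against a highest value of 6.95 elsewhere. Respiratory chain genes are abundant in muscle, and 35 of the 78 (44.9%) had their highest value of all 36 arrays there, against 8.02% of all genes. The 3 muscle isoforms of cytochrome c oxidase stood out. Cox6a2 was at 13.0 there, against 6.13 to 7.27 on the other arrays of both genotypes. Cox7a1 was at 11.7, and its highest value elsewhere was 7.37. Cox8b was at 10.1, and its highest value elsewhere was 5.52. For each of the 3, that second highest array was WT ZT 16 replicate 2. The general isoforms that pair with them were low on the muscle array: Cox6a1 stood 0.33 and Cox7a2 0.28 log2 under the median of the other arrays, and Cox8a 0.18 under it. Values that this array moves by more than 1.5 times or turns in sign are given below without it too.

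**Figure D1:**
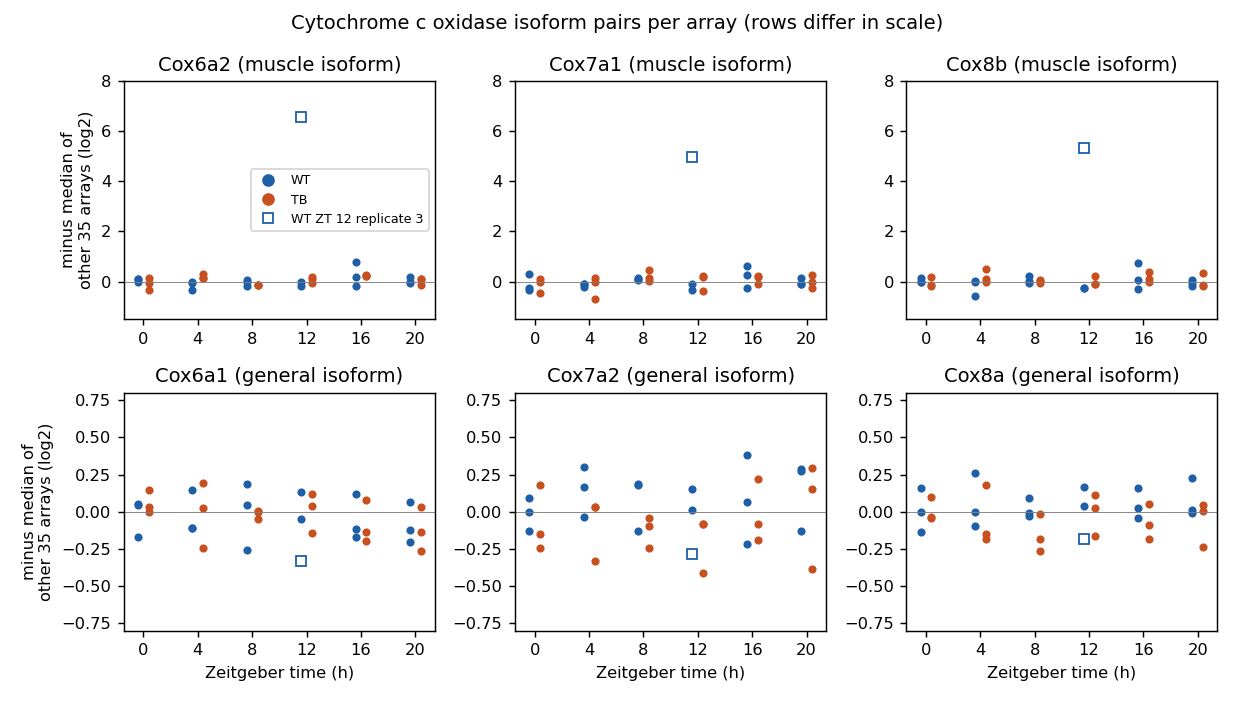
Each point is 1 array; the y axis is the log2 value minus the median of the 35 arrays other than WT ZT 12 replicate 3 (open square), and the x axis is Zeitgeber time in h. The upper row shows the muscle isoforms Cox6a2, Cox7a1 and Cox8b, which stand 6.55, 4.95 and 5.35 log2 above that median on the open square array, and the lower row, on a finer scale, the general isoforms, which lie below it there.

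Averaged over the 6 times, subunit genes were by their median slightly lower in TB than in WT livers in all 5 complexes, least so in complex IV. Of the 78 genes, 71 had a negative difference, with a median of −0.12 log2 and a range from −0.33 to 0.13. Over all genes the median was 0.0073 and 10237 of 22180 were negative (46.2%). Bright genes leaned lower as a whole: of the 7177 genes with a mean intensity of 100 or more, 66.6% were negative, with a median of −0.034. The 67 subunit genes that bright had a median of −0.14, with 65 negative, and the 11 dimmer ones had a median of −0.025, with 6 negative. Of the 67, Cox6a2 and Cox7a1 reached that mean only through the muscle array, WT ZT 12 replicate 3. Fitted without that array, the same 67 genes had a median of −0.11, with 64 negative. In these bulk samples, fewer cells of a type and less RNA per cell cannot be told apart.

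Atp5k and Uqcrfs1 fell and were the 2 of 78 genes that passed limma's test over all genes (adjusted p under 0.05). Of all 22180 genes, 0.0586% were called lower in TB, 0.117% higher and 0.176% in either direction. With each array centred on its median, 22 of the 41 genes called were lower in TB, against 13 of 39 here, and 4 of the 78 were called. Without an adjustment, 30 of the 78 (38.5%) had p under 0.05, against 11% of all genes and 15.9% of the bright ones. Without WT ZT 12 replicate 3 the median was −0.10 with 70 of 78 negative, and 1 gene, Atp5k, was called. The number called rested on single arrays, from 0 to 6 as each array was left out in turn, and it was 19 within the larger set of arrays (5.19% of all genes called, 3.7% lower) and 0 within the smaller set (0% of all genes). With the set as a block in the fit, 13 of the 78 were called, all lower (0.681% of all genes, 0.361% lower): 8 of complex I, 3 of the ATP synthase and 1 each of complexes II and III.

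Atp5k encodes subunit e of the ATP synthase, a small membrane protein at the interface where 2 synthases pair, and lies at chr5:108433246-108434399 (GRCm38.p6). Its 18 WT arrays ran from 8.74 to 9.11 with a median of 8.86, and its 18 TB arrays from 8.07 to 9.00 with a median of 8.65. The ranges overlapped, but the TB median lay under the lowest WT array. The gene fell by 0.27 ± 0.052 log2 (SE, n = 18 per genotype; limma adjusted p = 0.0275) and was lower at 6 of 6 times. The call was lost (adjusted p up to 0.0583) when any 1 of 9 arrays was left out: WT ZT 8 replicate 3, WT ZT 16 replicate 2, WT ZT 20 replicates 2 and 3, TB ZT 4 replicate 3, TB ZT 8 replicate 3, TB ZT 12 replicate 1, TB ZT 16 replicate 2 or TB ZT 20 replicate 2.

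Uqcrfs1, at chr13:30540312-30545316, encodes the Rieske iron-sulfur protein, which takes electrons from ubiquinol in complex III. Its WT arrays ran from 8.76 to 9.24 (median 9.06) and its TB arrays from 8.71 to 9.07 (median 8.80). It fell by 0.19 ± 0.041 log2 (limma adjusted p = 0.0488) and was lower at 5 of 6 times. At ZT 12 its WT arrays read 8.99, 9.19 and 9.09 and its TB arrays 8.78, 8.74 and 8.74. At ZT 4, 8, 12 and 16 every TB array lay under every WT array. The call was narrow: it held in 7 of the 36 fits that left out 1 array (without WT ZT 4 replicate 1, WT ZT 8 replicate 2, WT ZT 12 replicate 1, TB ZT 0 replicate 3, TB ZT 4 replicate 2, TB ZT 8 replicate 2 or TB ZT 16 replicate 3), and the adjusted p reached 0.101 in the others. Without WT ZT 12 replicate 3 it was 0.0547, with a difference of −0.19.

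**Figure D2:**
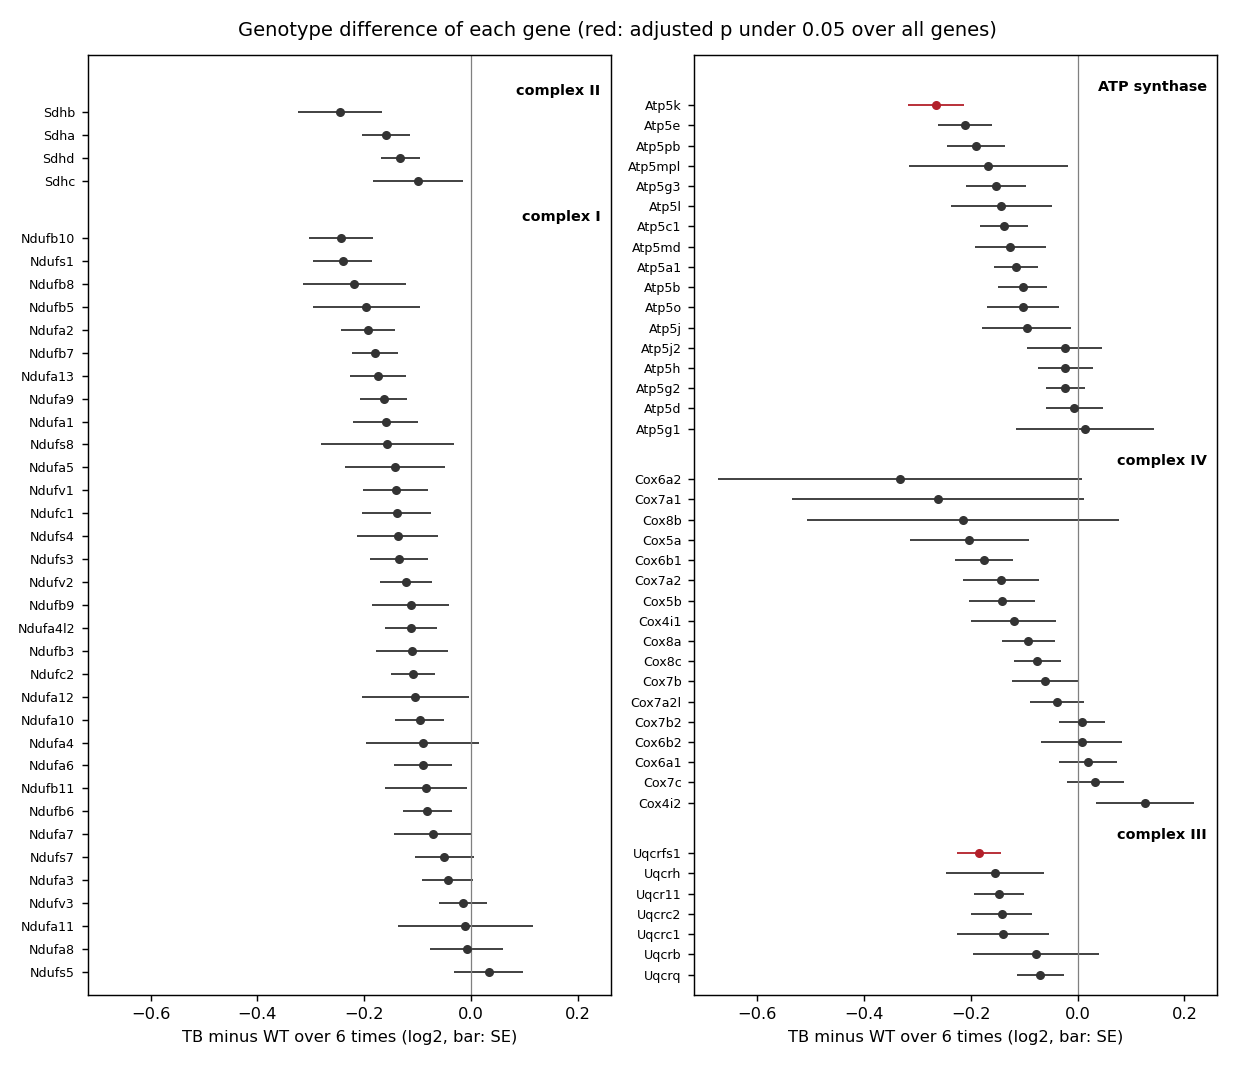
Points give each subunit gene's difference between TB and WT averaged over the 6 times (x axis, log2) with its standard error from limma, grouped by complex. Most points lie left of 0; Atp5k and Uqcrfs1, in red, passed the test over all genes, and the wide bars of Cox6a2, Cox7a1 and Cox8b come with their 1 high WT array.

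Complex I, the NADH dehydrogenase, had 32 of 33 genes negative, a median of −0.11 and 0 genes called. With the array set as a block, 8 were called: Ndufa2, Ndufa9, Ndufa13, Ndufb5, Ndufb7, Ndufb8, Ndufb10 and Ndufs1. Its 6 measured core subunits, which bacterial complex I shares, were all negative (median −0.14, from −0.24 for Ndufs1 to −0.050 for Ndufs7, and −0.0061 for Ndufs7 without WT ZT 12 replicate 3). Ndufs1, the largest core subunit, ran from 8.58 to 9.49 in WT (median 8.92) and from 8.27 to 8.95 in TB (median 8.69). Its difference was −0.24 ± 0.055 (limma adjusted p = 0.0625), and −0.21 without WT ZT 12 replicate 3, which was its highest array. Ndufv2, another iron-sulfur core subunit, differed by −0.12 ± 0.049. Of the 25 supernumerary subunits, which surround the core in animals, 24 were negative with a median of −0.11. Ndufb10 differed by −0.24 ± 0.060 and Ndufb7 by −0.18 ± 0.044 (limma adjusted p = 0.0889 and 0.0855). Both are subunits of the intermembrane space side, and both were lower at 6 of 6 times. Ndufb7 ran from 7.50 to 7.89 in WT and from 7.27 to 7.72 in TB. Ndufa2, a small subunit with a thioredoxin-like fold, differed by −0.19 ± 0.051 (adjusted p = 0.123). Ndufs5, at 0.033 ± 0.065, was the 1 gene of complex I with a positive value, and stood at 0.059 without WT ZT 12 replicate 3. Ndufa4, named after complex I but now known as a subunit of complex IV, differed by −0.091 ± 0.107 (−0.050 without WT ZT 12 replicate 3), and its dim relative Ndufa4l2, known for induction by hypoxia, by −0.11 ± 0.049.

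Complex II, succinate dehydrogenase, is the part of the chain shared with the citric acid cycle, and its 4 genes were all negative (median −0.15) with 0 called, or 1, Sdhb, with the array set as a block. Sdha, the flavoprotein that oxidises succinate, ran from 10.62 to 11.03 in WT (median 10.84) and from 10.29 to 10.87 in TB (median 10.70). It differed by −0.16 ± 0.046 (limma adjusted p = 0.157) and was lower at 6 of 6 times. Sdhb, the iron-sulfur subunit, differed by −0.25 ± 0.078 (adjusted p = 0.199), the lowest value of any complex II gene. Its arrays ran from 9.51 to 10.5 in WT, where the highest was WT ZT 12 replicate 3, and from 9.09 to 10.1 in TB. The membrane anchors Sdhd and Sdhc, which bind ubiquinone, differed by −0.13 ± 0.037 (adjusted p = 0.146) and −0.10 ± 0.084. Within the smaller set of arrays without the muscle array, Sdhc was 0.018 higher in TB.

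Complex III, the cytochrome bc1 complex, had 7 of 7 genes negative with a median of −0.14, and Uqcrfs1 was called. Uqcrc2, a core protein of the complex, differed by −0.14 ± 0.057, with WT arrays from 10.2 to 10.9 and TB arrays from 10.0 to 10.5. Uqcr11, a small accessory subunit, differed by −0.15 ± 0.047 (limma adjusted p = 0.201), and Uqcrh, the hinge protein of cytochrome c1, by −0.16 ± 0.092.

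Complex IV, cytochrome c oxidase, was the least uniform: 12 of 17 genes were negative, with a median of −0.093, and 0 were called, with or without the array set as a block. Without WT ZT 12 replicate 3, 10 of 17 were negative and the median was −0.056. With all arrays 11.8% of the complex IV genes had an unadjusted limma p under 0.05, against 11% of all genes and 15.9% of bright ones. Its 9 general isoforms had a median of −0.12 with 7 negative, and its 7 tissue isoforms a median of −0.075 with 4 negative. Without the muscle array the tissue isoforms had a median of 0.025 with 1 of 7 negative, while the general isoforms stayed at −0.11 with 8 of 9 negative. Among the general isoforms, Cox6b1 differed by −0.18 ± 0.054 (limma adjusted p = 0.187), with 9.80 to 10.4 in WT and 9.68 to 10.2 in TB. Cox5b and Cox7a2 each differed by −0.14 (SE 0.062 and 0.071). Cox4i1, the regulatory subunit that binds adenine nucleotides, differed by −0.12 ± 0.079 and Cox8a by −0.093 ± 0.049. Cox6a1 differed by 0.019 ± 0.054 (−0.0014 without WT ZT 12 replicate 3) and Cox7b differed by −0.061 ± 0.061. The lung isoform Cox4i2 had the highest value of the 78 genes, 0.13 ± 0.092, with WT arrays from 6.31 to 7.67 and TB arrays from 6.59 to 7.54. The testis isoforms Cox6b2 and Cox7b2 differed by 0.0075 ± 0.075 and 0.0075 ± 0.043, and Cox8c by −0.075 ± 0.045. Cox6b2 stood at 0.013 without WT ZT 12 replicate 3. The muscle isoforms Cox6a2, Cox7a1 and Cox8b differed by −0.33 ± 0.341, −0.26 ± 0.273 and −0.21 ± 0.292, each with an error above its value. Those negative values rest on WT ZT 12 replicate 3: without it the 3 genes stood at 0.037 ± 0.063, 0.025 ± 0.088 and 0.097 ± 0.079.

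The ATP synthase had 16 of 17 genes negative, a median of −0.12, and Atp5k called. With the array set as a block, Atp5e and Atp5pb were called as well, and without WT ZT 12 replicate 3 17 of 17 genes were negative. The 5 genes of its catalytic head and central stalk were all negative (median −0.12). Among them, Atp5e, the epsilon subunit of the rotor, ran from 8.39 to 8.83 in WT (median 8.65) and from 8.11 to 8.97 in TB (median 8.38). It differed by −0.21 ± 0.051 (limma adjusted p = 0.0814) and was lower at 6 of 6 times. Atp5c1, the gamma subunit that turns inside the head, differed by −0.14 ± 0.045 (adjusted p = 0.211). In the peripheral stalk, which holds the head still, 4 of 4 genes were negative, and Atp5pb, subunit b, differed by −0.19 ± 0.055 (adjusted p = 0.158). The 3 genes for the c-ring, which encode the same mature protein, did not share a value: Atp5g3 differed by −0.15 ± 0.056, Atp5g2 by −0.023 ± 0.037 and Atp5g1 by 0.014 ± 0.129, which turned to −0.038 ± 0.124 without WT ZT 12 replicate 3. The 5 membrane subunits around the ring were all negative, with a median of −0.14.

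Across the day, the subunit genes of TB livers were lowest in the later light phase and at lights off, and nearest to WT at ZT 0 and ZT 20. For each array, the log2 value of each gene minus its mean over the 36 arrays was averaged over the 78 genes. At ZT 0 this mean deviation was −0.032, −0.072 and 0.011 in WT and −0.057, −0.069 and 0.054 in TB, so the groups overlapped. At ZT 4 it was 0.0048, 0.064 and 0.0041 in WT and −0.020, −0.051 and −0.091 in TB, with no overlap. At ZT 8 it was 0.040, −0.024 and 0.070 in WT and −0.24, −0.019 and −0.15 in TB, where 2 of 3 TB arrays lay under all WT arrays. At ZT 12 it was −0.0036, 0.055 and 0.42 in WT, the last on the muscle array, and −0.15, −0.13 and −0.11 in TB, with no overlap. At ZT 16 WT arrays stood at 0.046, 0.11 and 0.11 and TB arrays at −0.011, −0.094 and −0.020, again with no overlap. At ZT 20 the WT arrays, from 0.070 to 0.097, and the TB arrays, from −0.033 to 0.084, overlapped. TB ZT 8 replicate 1 was the lowest of all 36 arrays.

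**Figure D3:**
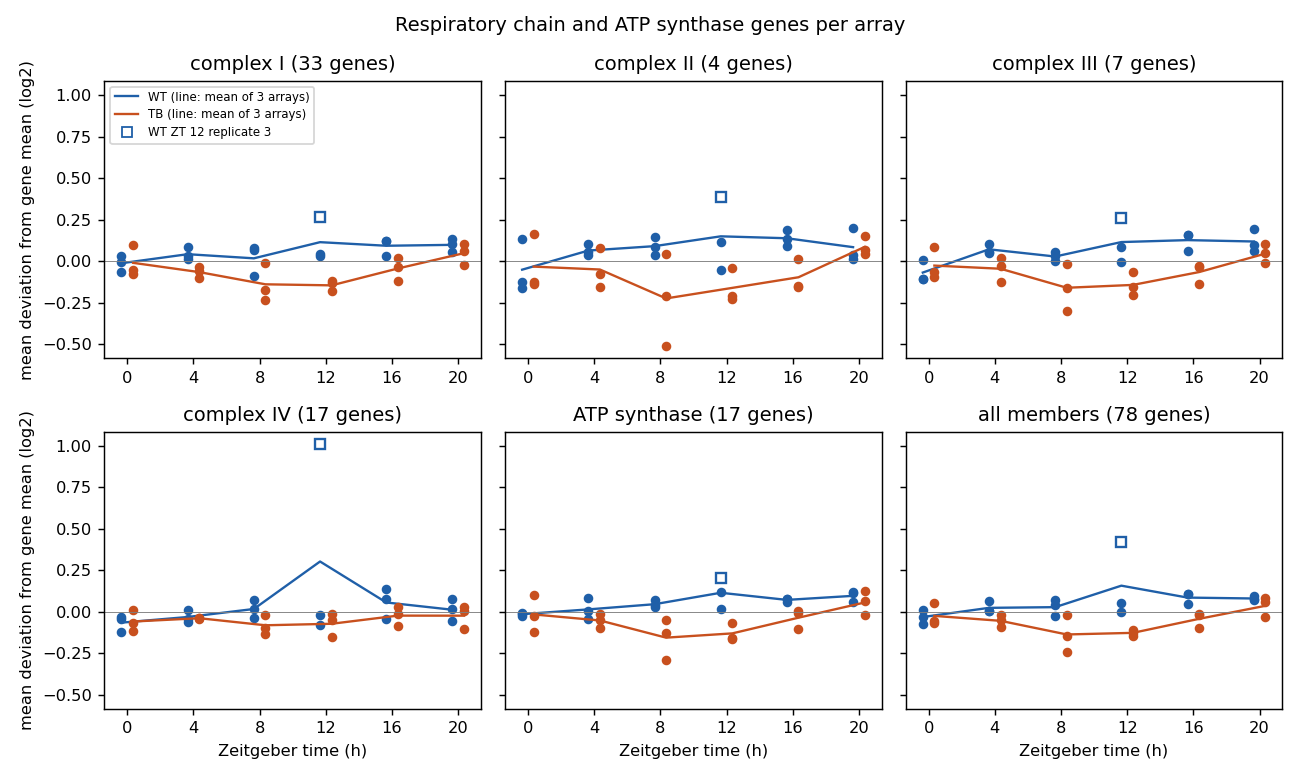
Each point is 1 array, given as the mean over the genes of a complex of the log2 value minus the gene's mean over 36 arrays (y axis), against Zeitgeber time in h; lines join the means of 3 arrays. The TB mean lies under the WT mean from ZT 4 to ZT 16 in every complex. In complex IV the TB mean minus the WT mean is only −0.0074 at ZT 4. At ZT 12 it is −0.022 there without WT ZT 12 replicate 3. Single arrays of the genotypes overlap at some or all of these times in every complex but complex III. The open square is WT ZT 12 replicate 3, at 0.42 over all 78 genes.

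By single times, 0 of the 78 genes passed limma's test over all genes at any of the 6 ZT, where between 0% and 0.00451% of all genes were called, and 0 passed the interaction test of genotype with time (background 0%). The median difference over the 78 genes was 0.0067 at ZT 0, −0.090 at ZT 4, −0.17 at ZT 8, −0.24 at ZT 12, −0.12 at ZT 16 and −0.038 at ZT 20. Without WT ZT 12 replicate 3 the median at ZT 12 was −0.16. Over all genes those medians ran from −0.019 to 0.022. Over bright genes they were 0.018, −0.049, −0.073, −0.074, −0.057 and 0.032 from ZT 0 to ZT 20. Bright genes as a whole were thus also lowest at ZT 8 and ZT 12, by less. The counts with an unadjusted limma p under 0.05 were 1, 2, 18, 27, 11 and 0 of 78 from ZT 0 to ZT 20, and 10 at ZT 12 without the muscle array. With all arrays the shares are 1.28%, 2.56%, 23.1%, 34.6%, 14.1% and 0%, against 4.74%, 3.26%, 5.3%, 7.41%, 5.38% and 1.81% of all genes. The 34.6% at ZT 12 thus includes the muscle array, without which the count fell from 27 to 10. The share of all genes at ZT 12 without that array is not given here, so the 10 have no background beside them. The interaction had 3 such genes (3.85%), against 550 of all genes (2.48%): Sdhd, Uqcr11 and Ndufs1. All 3 had an adjusted p of 1.

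Counted without a model, every TB array lay under every WT array for 21 of 78 genes at ZT 12 (26.9%), where 4.26% of all genes did so. At ZT 16 it was 16 genes (20.5% against 5.36%), at ZT 4 12 genes (15.4% against 4.58%) and at ZT 8 10 genes (12.8% against 5.85%). At ZT 0 and ZT 20 it was 2 genes each (2.56% against 2.2% and 3.3%). The reverse order, every TB array above every WT array, held for Cox7c at ZT 0 (4.27% of all genes), Cox6a2 at ZT 4 (4.8%), Cox4i2 at ZT 12 (6.79%), Ndufs5 at ZT 16 (7.98%) and none of the 78 at ZT 8 (3.54%) or ZT 20 (3.26%). Sdhd and Uqcrfs1 were among the genes with every TB array under every WT array at each of ZT 4, 8, 12 and 16. Atp5k and Ndufs1 were among them at ZT 4, 12 and 16. At ZT 12 Ndufs1 read 8.82, 8.92 and 9.49 in WT and 8.48, 8.46 and 8.72 in TB, and its difference of −0.52 ± 0.135 (limma adjusted p = 0.418) had the smallest p of the 78 genes at that time. Without the muscle array, which held the 9.49, that difference was −0.32 ± 0.126 (adjusted p = 0.512). The smallest p was then that of Sdhd, at −0.33 ± 0.102 (limma adjusted p = 0.430). Complex II had its lowest median at ZT 8, −0.34 over its 4 genes, and the ATP synthase was at −0.22 there. The mean deviation of complex II at ZT 8 was −0.51, 0.046 and −0.21 on the TB arrays. On the WT arrays it was 0.040, 0.088 and 0.14, so the groups overlapped. By these means the difference was −0.31 at both ZT 8 and ZT 12 (−0.19 at ZT 12 without the muscle array). Of the 78 genes, 21 were negative at all 6 times, 24 at 5, 18 at 4, 9 at 3 and 6 at 2.

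**Figure D4:**
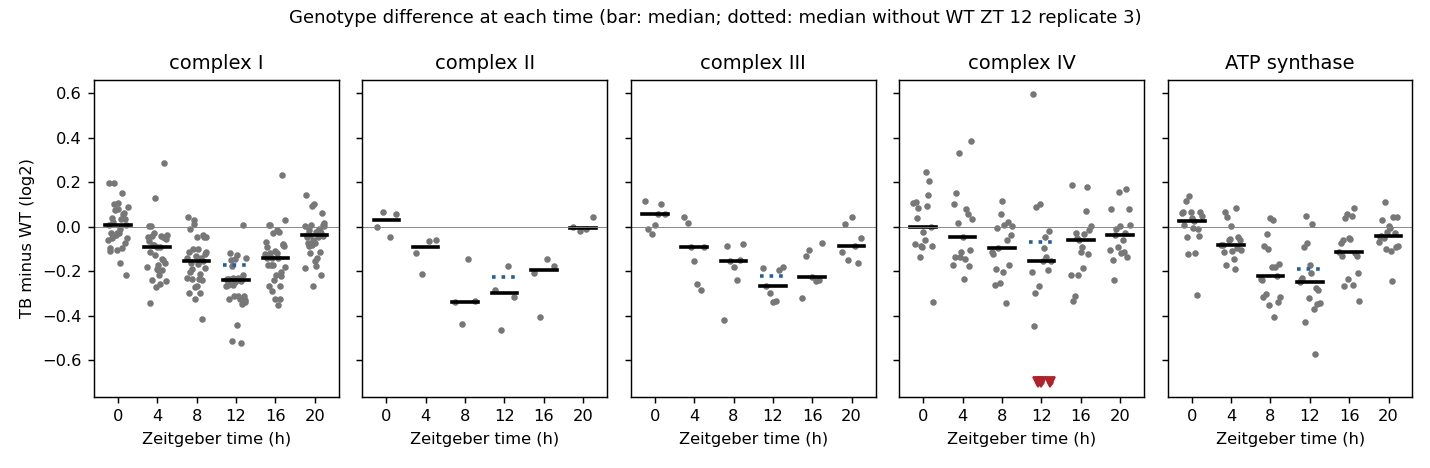
Each grey point is 1 gene's difference between TB and WT (log2) at a Zeitgeber time, by complex, with the median of the complex as a bar and, dotted, the median at ZT 12 without WT ZT 12 replicate 3. Medians are closer to 0 at ZT 0 and ZT 20 than at ZT 8 and ZT 12; the 3 triangles are Cox6a2, Cox7a1 and Cox8b, which lie beyond the axis.

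A 24 h rhythm was fitted as a cosine within each genotype, with the amplitude as its height above the mean. In WT, 1 of 78 genes was called (1.28%), against 6.45% of all genes, and in TB 1 of 78, against 4.95%. All 12 measured core clock genes were called in both genotypes. The median amplitude of the subunit genes was 0.075 log2 in WT and 0.10 in TB, close to that of all genes (0.086 and 0.089). With an unadjusted limma p under 0.05 there were 9 genes in WT (11.5%, against 16.8% of all genes) and 14 in TB (17.9%, against 16.8%). Among bright genes the shares were higher, 31.2% in WT and 30.3% in TB. A rhythm that differed between genotypes was called for 0 of 78 genes (background 0%). Its unadjusted limma p was under 0.05 for 11 of 78 (14.1%), against 1065 of all genes (4.8%).

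Sdhd was the gene called rhythmic in WT, with an amplitude of 0.14 log2, a peak at ZT 12.4 and an adjusted p of 0.0361 in limma. Its WT arrays read 9.77, 9.70 and 9.68 at ZT 0, then 10.05, 9.84 and 10.07 at ZT 8 and 9.97, 10.04 and 10.04 at ZT 16. In TB they read 9.86, 9.75 and 9.72 at ZT 0, 9.53, 9.67 and 9.76 at ZT 8 and 9.94, 9.69 and 10.12 at ZT 20. Its TB peak was at ZT 20.5 with an amplitude of 0.11 (limma adjusted p = 0.138), and the WT and TB arrays overlapped at ZT 0 and ZT 20 but at none of the 4 times between. Sdhd ranked first of the 78 genes in limma's test for a difference in rhythm, with an adjusted p over all genes of 0.985. The WT call was lost when any of 9 WT arrays was left out, each of the 3 at ZT 0, ZT 4 replicate 1, ZT 8 replicates 1 and 3, ZT 12 replicate 2 and ZT 16 replicates 2 and 3, with an adjusted p of up to 0.0979. It held without WT ZT 12 replicate 3 (adjusted p = 0.0351).

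Atp5e was the gene called rhythmic in TB, with an amplitude of 0.21 log2, a peak at ZT 22.2 and an adjusted p of 0.0115 in limma. Its TB arrays read 8.11, 8.39 and 8.12 at ZT 12 and 8.97, 8.38 and 8.62 at ZT 20. Its WT arrays read 8.59, 8.67 and 8.65 at ZT 12, above all TB arrays, and 8.80, 8.53 and 8.79 at ZT 20, within the TB range. In WT the amplitude was 0.051 (limma adjusted p = 0.869). The TB call held in all 36 fits that left out 1 array, and was lost with quantile normalization (adjusted p = 0.0827), without ZT 12 (0.153) and with time as a factor of 6 levels (0.198). The difference in rhythm between genotypes had an adjusted p of 0.985.

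The genes with the next smallest rhythm p-values did not pass the test over all genes. In WT these included Ndufv2 (amplitude 0.17, peak ZT 16.4, limma adjusted p = 0.0808), the testis isoform Cox7b2 (0.14, ZT 10.8, adjusted p = 0.0884) and Cox5b (0.20, ZT 16.2, adjusted p = 0.108). In TB they were Ndufa2 (0.18, ZT 22.4, adjusted p = 0.0590), Atp5g3 (0.18, ZT 20.8, adjusted p = 0.104), Ndufv2 (0.16, ZT 19.6, adjusted p = 0.105), Uqcrfs1 (0.13, ZT 21.1, adjusted p = 0.117), Uqcr11 (0.16, ZT 22.2, adjusted p = 0.131), Cox7b (0.20, ZT 21.0, adjusted p = 0.171) and Sdhb (0.21, ZT 22.3, adjusted p = 0.209).

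The fitted peaks of the 78 genes, called or not, lay at different times in the 2 genotypes. In WT, 38 of 78 (48.7%) peaked between ZT 12 and ZT 16, against 15.8% of all genes, and 28 did so without WT ZT 12 replicate 3 (35.9%). In TB, 56 of 78 (71.8%) peaked between ZT 20 and ZT 24, against 19.4% of all genes and 32.4% of bright genes. In WT 6 of 78 (7.69%) peaked there. The genes share their arrays, so these counts describe the 18 arrays of each genotype and not 78 separate observations. With quantile normalization 27 WT genes and 36 TB genes lay in those windows, within the smaller set of arrays 37 and 25, within the larger set 19 and 50, and with array weights 23 and 51. In the larger set more WT genes, 23, peaked between ZT 16 and ZT 20.

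**Figure D5:**
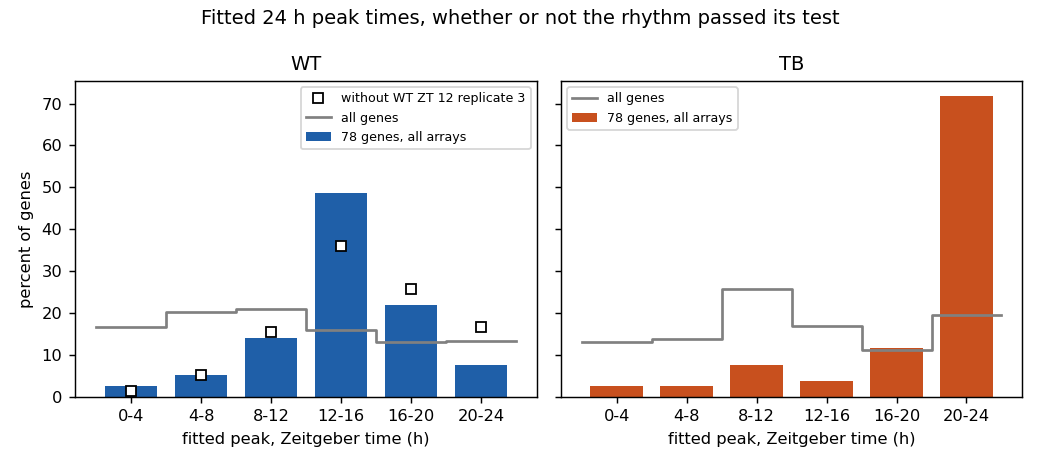
Bars give the percentage of the 78 subunit genes whose fitted 24 h peak falls in each 4 h window of Zeitgeber time, in WT (left) and TB (right); the grey line is the same for all 22180 genes, and open squares leave out WT ZT 12 replicate 3. The WT bars are highest from ZT 12 to ZT 16 at 48.7%, and the TB bars from ZT 20 to ZT 24 at 71.8%.

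Most genes that work with the complexes also had negative values, with 0 called in the genotype comparison in each of the 5 lists. Of 48 measured assembly factors, 45 were negative with a median of −0.14. An unadjusted limma p under 0.05 was found for 25 of them (52.1%), against 11% of all genes and 15.9% of bright ones. The smallest p-values were those of Uqcc1, a complex III assembly factor, at −0.27 ± 0.072, Taco1, a translational activator of complex IV, at −0.18 ± 0.048 and the copper chaperone Sco1 at −0.17 ± 0.046. Of 19 genes for electron carriers and the synthesis of ubiquinone, 18 were negative with a median of −0.13, led by Coq9 (−0.17 ± 0.045), Etfb (−0.16 ± 0.045) and Coq8a (−0.30 ± 0.091). Of 17 citric acid cycle genes, 16 were negative with a median of −0.15, led by Idh3b (−0.21 ± 0.052), Dld (−0.21 ± 0.052) and Pdhx (−0.22 ± 0.059). Of 10 partners of the ATP synthase, 9 were negative with a median of −0.076. These were led by the outer membrane channel Vdac1 (−0.19 ± 0.049), Ucp3 (−0.18 ± 0.107) and the nucleotide carrier Slc25a4 (−0.44 ± 0.289). The muscle array held the highest of 36 values for 6 of these 10 genes and for 13 of the 17 citric acid cycle genes. Without it Vdac1 stood at −0.15, Ucp3 at −0.084 and Slc25a4 at −0.14, and the median of the citric acid cycle genes at −0.10. Of 16 genes for regulators of mitochondrial gene expression, 11 were negative with a median of −0.040, led by Tfb1m (−0.14 ± 0.053), Tefm (−0.084 ± 0.043) and Gabpa (−0.083 ± 0.043). These 11 are 68.8%, near the 66.6% of bright genes. An unadjusted limma p under 0.05 was found for 47.4% of the electron carrier genes and 47.1% of the citric acid cycle genes (5 of 17 without the muscle array). For the ATP synthase partners it was 10% and for the regulators 6.25%, both under the 11% of all genes.

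Rhythms were called for some of these genes. In limma, 4 assembly factors were called in WT and 3 in TB, 4 and 3 electron carrier genes, 1 and 2 citric acid cycle genes, 2 and 2 regulators and 1 and 0 partners of the ATP synthase. Over all genes 6.45% were called in WT and 4.95% in TB. Coa6, an assembly factor of complex IV, was called in both genotypes, with peaks at ZT 15.1 in WT and ZT 14.2 in TB. Ppargc1b, a coactivator of mitochondrial genes, was called in both, with peaks at ZT 9.27 and ZT 8.84 and amplitudes of 0.65 and 0.49. Coq8a, a kinase-like protein of ubiquinone synthesis, was called in both, at ZT 1.06 in WT and ZT 23.5 in TB. Cycs, which encodes cytochrome c, was called in TB with a peak at ZT 20.4. In none of the 5 lists did a gene pass limma's test for a rhythm that differed between genotypes.

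Markers of other cell types were set beside these results. The muscle list had 22 of 22 genes negative with a median of −0.35, but 10 of 22 negative with a median of 0.0033 without WT ZT 12 replicate 3. Its summed level ran from 10.0 to 11.1 in WT without the muscle array (18.7 on it) and from 10.1 to 10.6 in TB. The hepatocyte list, 12 genes, had a summed level of 15.9 to 16.2 in WT and 16.0 to 16.2 in TB. Of its genes 33.3% were negative and 16.7% had an unadjusted limma p under 0.05. Without the muscle array 1 of the 12 had such a p. The list of Kupffer cells and macrophages, 8 genes, had 7 positive values with a median of 0.11, and a summed level of 9.64 to 11.2 in WT and 10.0 to 11.3 in TB. Without the muscle array 6 of these 8 were positive, with a median of 0.061. With all arrays 12.5% of the 8 had an unadjusted limma p under 0.05. Of the endothelial and the stellate cell list 2 of 7 genes each (28.6%) had an unadjusted limma p under 0.05, against 11% of all genes. Of the pancreas and gut list it was 2 of 5 (40%). The medians of these lists were, in that order, −0.025, −0.0094 and 0.050. Without the muscle array they were −0.0027, 0.0053 and 0.026. None of these lists held a called gene. The part of these cell types in the lower subunit values was not tested. Without the muscle array the subunit genes kept a median of −0.10.

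The smaller and the larger set of arrays gave values of different size. Within the larger set the median over the 78 genes was −0.13 with 72 negative. The 19 genes called there were 11 of complex I, 2 of complex II, 1 of complex III and 5 of the ATP synthase, and none of complex IV. Atp5k was at −0.32 (limma adjusted p = 0.0110) and Ndufs1 at −0.28 (adjusted p = 0.00796). Within the smaller set the median was −0.095 with 62 negative, and without its muscle array −0.036 with 50 of 78 negative. There Ndufs1 was at −0.047 and Sdha at −0.023, while Atp5k was at −0.13 and Atp5e at −0.15. The difference between the sets was not tested.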

How the data were processed

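RNA of mouse liver was measured on 36 Affymetrix arrays, which count no reads, so there is no depth, and the number of arrays limits the precision. The deposited values are linear probe set intensities that the authors made with PLIER 2.0 in Expression Console 1.1.1, per the submitters' processing notes. The normalization between arrays is not given in the sources used here. Of 41345 probe sets, 23521 named 1 gene symbol, 1814 several and 16010 none. Each of 22180 genes was read from its probe set with the highest mean, taken as log2(intensity + 16), without further scaling, and fitted with limma 3.58.1 in R 4.3.3 to 12 group means. Contrasts gave the genotype difference over the 6 times, at each time, and the interaction. A cosine of 24 h per genotype gave the rhythms. Adjusted p-values are Benjamini-Hochberg over all genes, with a threshold of 0.05. The fits were tested on simulated data.

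The members and gene lists were chosen with earlier results of these data known, including lower levels of respiratory chain genes in TB, so no pattern here is independent support for those results. Named genes are those called in any test, the 4 per complex with the smallest genotype p, the 2 per complex and genotype with the smallest rhythm p, complex II, the tissue isoforms with their partners, and up to 3 of each other list. Other genes named stand at the end of a range or were chosen after their values were seen. The 2 array sets are the sides of the first principal component of deviations within groups over probe sets without a symbol. Promoter windows and gene positions are RefSeq's, on GRCm38.p6, and 78 of 78 symbols matched. The alleles of the TB genotype are not reported here.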

Additional observations from a re-analysis of the deposited data

How the results depend on the processing

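In the genotype comparison, where 2 genes were called and the median was −0.12, the count was 0 with a pseudocount of 1, 1 with quantile normalization, 4 with median centring, 1 with a variance trend and robust fitting, 14 with array weights (2.83% of all genes called), 13 with the array set as a block (0.681%), 19 with only the larger set and 0 with only the smaller one. Settings chosen after seeing the data gave 11 (set block without WT ZT 12 replicate 3) and 0 (smaller set without it, where the median was −0.036 and Sdhc reversed to 0.018). With a replicate block on the number, and with pairs within a time, 1 gene was called each. The main fit did not take the numbers to pair the samples. The deviations of same-numbered WT and TB arrays correlated above 0.1 in 14 of 18 pairs (median r 0.16). Arrays with different numbers did so in 4 of 36 pairs (median r −0.12), so part of the variation went with the number. Leaving out 1 array gave 0 to 6 genes called (6 without TB ZT 8 replicate 2) and a median from −0.13 to −0.10. In the WT rhythm, where 1 gene was called, the count was 0 with a pseudocount of 1, median centring, either array set alone, a variance trend, 6 levels of time, the 18 WT arrays alone, or (added after seeing the data) without ZT 12. It was 3 with the set block, with and without WT ZT 12 replicate 3 (9.03% and 8.99% of all genes), and 3 with array weights (9.64%), and 0 to 1 with 1 array left out. In the TB rhythm, also 1, it was 0 with quantile normalization, the mean of a gene's probe sets, the smaller set, 6 levels of time, the 18 TB arrays alone or without ZT 12. It was 2 with median centring (5.37% of all genes) or without the genes lowest in mean level (8.66%), 3 in the larger set (4.25%), 10 with array weights (8.99%), 12 with the set block, with and without WT ZT 12 replicate 3 (7.48% and 8.23%), and 1 to 2 with 1 array left out. At ZT 8 it was 1 in the larger set (0.126%) and 3 with array weights (0.28%), against 0. The cause of these changes was not tested.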
